A study of Mus musculus with 16 samples.

Results

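The comparison described here sets mouse 3T9 fibroblasts at 2 h of serum against the same line at 1 h, and asks which mature microRNAs (miRNAs) first moved in that hour and which had moved by 1 h and came back. It uses 4 of the 16 small RNA libraries analysed, 2 at 2 h and 2 at 1 h, chosen by their time labels and not by any measured value. 3T9 is an immortalised mouse fibroblast line grown from embryo cells. Cells of every group had been starved of serum for 72 h to make them quiescent and then received complete medium with 10% fetal bovine serum, and the starting point of the course (0 h) and 4 h of serum are given beside the compared times as context. The replicates of a time are separate experiments per the series design text, and each was sequenced in its own run, so experiment and run cannot be told apart.

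A miRNA is cut from a hairpin within a longer transcript by Drosha and then Dicer, which leaves a duplex of a 5p and a 3p arm. One arm, the guide, is usually kept by an Argonaute protein and finds its targets through its seed, while the other, the passenger, is usually lost soon after. Once held by Argonaute, guides tend to be long-lived. Here the guide is the arm with more reads over all 16 libraries, and the passenger is the other arm of that hairpin. By this rule miR-212-5p is the guide of its hairpin, although the 3p arm is the one usually studied.

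Level is given as CPM, read counts scaled by TMM to a common library total, and includes every read of a mature miRNA, whether it equals the reference, is trimmed, or is extended at an end. In the compared libraries 3 reads, the most that a count of 0 allows, correspond to 0.403 to 0.453 CPM on this scale. Of 1167 miRNAs in the table, 718 had too few reads to be tested and the others were tested. A miRNA is called, and is said to have risen or fallen, where edgeR's quasi-likelihood test gave a Benjamini-Hochberg adjusted p under 0.05 over all those tested. Each adjusted p for a single miRNA comes from that test. With 2 libraries a time the spread was estimated from all 16 libraries together, and changes are given as log2 of 2 h over 1 h with a standard error (SE).

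The mature sequences of the 9 miRNAs called between 2 h and 1 h are shown because they carry the findings that follow. They are from RefSeq (GRCm38.p6), 5′ to 3′, with the seed, bases 2 to 8, in capitals. The first 7 were higher at 2 h and the last 2 were lower.
miR-155-3p: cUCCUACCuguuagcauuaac
miR-29b-1-5p: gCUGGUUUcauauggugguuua
miR-702-5p: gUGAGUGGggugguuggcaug
miR-212-5p: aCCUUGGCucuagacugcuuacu
miR-92a-1-5p: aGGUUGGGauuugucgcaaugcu
miR-155-5p: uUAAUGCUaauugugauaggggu
let-7e-3p: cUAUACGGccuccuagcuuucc
miR-128-1-5p: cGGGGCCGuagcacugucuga
miR-181a-1-3p: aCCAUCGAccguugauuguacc
The 9 carry 9 different seeds.

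The compared libraries held 7006206 and 6466071 miRNA reads at 2 h, against 7280548 and 6378021 at 1 h. The miRNAs that mark fibroblasts and mesenchyme, such as miR-143, miR-199a and miR-214, fitted the labelled cell type. All 11 listed arms were tested and none was called between 2 h and 1 h. Together they made 156300 to 163200 CPM at 2 h and 148000 to 162900 CPM at 1 h. Most of that sum was miR-143-3p, with 997401 and 894397 reads at 2 h and 1058769 and 861369 at 1 h, so it says little about the other arms. Of 10 pluripotent-cell arms in the table none had enough reads to be tested, with sums of 0.151 to 0.426 CPM at 2 h and 0.440 to 0.672 CPM at 1 h, and 6 were at 0 in all 4 libraries. Replicates differed by more than counting noise at both times, with chi-square values of 100.7 per degree of freedom at 2 h and 62.1 at 1 h. In RNA from a whole culture, fewer cells holding a miRNA and less of it per cell cannot be told apart.

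Between 1 h and 2 h of serum few miRNAs changed. Of the tested miRNAs 9 were called (2%), 7 higher at 2 h (1.56%) and 2 lower (0.445%), and 47 (10.5%) had an unadjusted p under 0.05. Both 2 h libraries lay above both 1 h libraries for 73 tested miRNAs (16.3%), and below both for 97 (21.6%). Groups without overlap were thus common, and where they are mentioned below they only describe the values. Of the 9, 7 were passenger arms and 2 were guides. By arm, 7 of 151 tested passengers (4.64%) and 2 of 241 tested guides (0.830%) were called, a difference that was not tested, and no miRNA among the 56 for which the table lists 1 arm was called. Passengers had the lower levels, with a median of 11.5 CPM at 1 h against 58.7 CPM for guides. Their median log2 change was -0.13, against -0.03 for guides, and the summed passenger reads made 2.15% and 2.03% of arm-assigned reads at 2 h and 2.13% and 2.22% at 1 h. With the replicate number as a block, which takes out differences between the 2 experiments, 18 miRNAs were called, 11 higher and 7 lower, all 9 among them. Without the first 1 h library 5 were called, and without the second 2 h library 4.

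**Figure D1:**
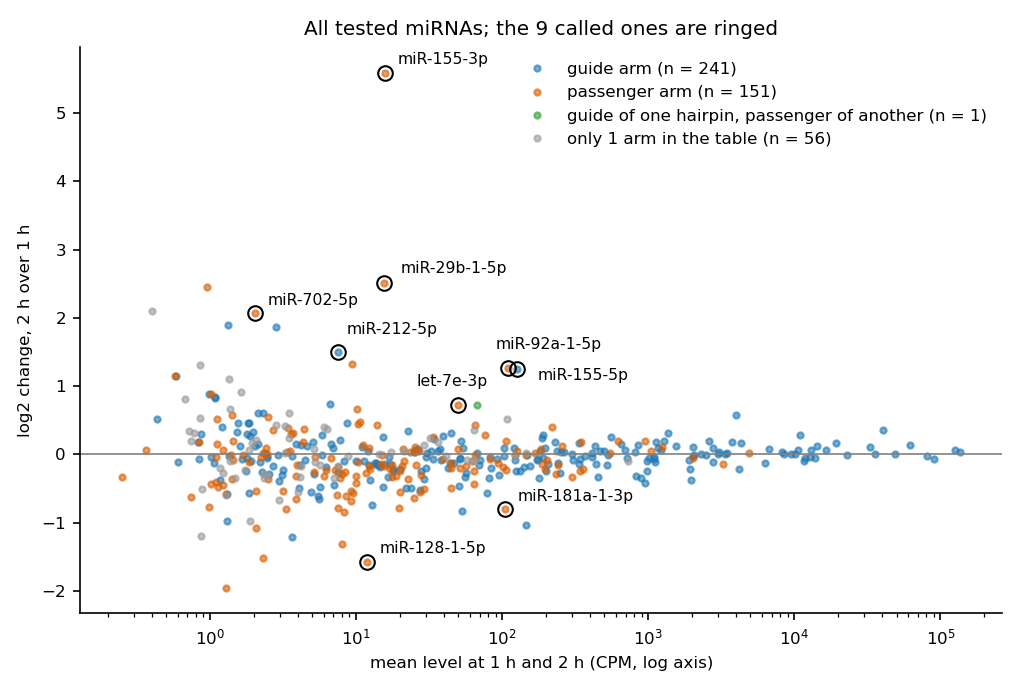
Log2 change of 2 h over 1 h (vertical axis) against the mean level at both times in CPM (log axis) for all tested miRNAs, coloured by arm; the 9 called miRNAs are ringed. Most points lie near 0, the called ones lie below 200 CPM, and 7 of the 9 are passenger arms.

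Both arms of miR-155 rose in the second hour. miR-155 is made from the non-coding Mir155hg (BIC) transcript and is known for its induction in activated lymphocytes and macrophages, and it is also described as induced by growth factors. Its hairpin lies in an exon of Mir155hg at chr16:84714140-84714204 on the plus strand (GRCm38.p6). The RefSeq hairpin, shown because both of its arms and the bases next to the 5p arm enter the results, reads as follows, with the 5p arm and then the 3p arm in capitals.
Mir155: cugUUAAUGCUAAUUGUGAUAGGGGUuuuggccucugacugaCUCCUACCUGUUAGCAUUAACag

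The passenger miR-155-3p had 29.6 and 32.6 CPM at 2 h (209 and 216 reads), against 1.08 and 0.147 CPM at 1 h (8 and 1 reads). It was close to absent at 1 h, as it was at 0 h with 1 and 2 reads, and both 2 h libraries lay far above both 1 h libraries. The log2 change was 5.59 (SE 0.42, adjusted p = 1.18e-06), and the ratio of summed, scaled reads was 49.3 (95% counting interval 25.7 to 109). Within the first and the second experiment the difference in log2(CPM + 0.5) was 4.26 and 5.68. At 4 h it was down to 10.2 and 14.6 CPM.

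The guide miR-155-5p had 174 and 180 CPM at 2 h, against 68.7 and 80.7 CPM at 1 h. The groups did not overlap, and the 1 h values lay where the 0 h values of 76.1 and 83.2 CPM had been. The log2 change was 1.25 (SE 0.22, adjusted p = 0.00572), with 1.34 and 1.15 within the 2 experiments. Unlike the passenger it stood higher still at 4 h, at 354 and 413 CPM. The call was lost without the first 1 h library (adjusted p = 0.0821) and without the second 2 h library (adjusted p = 0.0541).

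As the passenger rose further than the guide, the make-up of the miR-155 reads shifted. miR-155-3p made 14.6% of the hairpin's reads in one 2 h library (exact binomial 95% interval 12.8 to 16.5) and 15.3% in the other (13.5 to 17.3). At 1 h it made 1.54% (0.668 to 3.01) and 0.181% (0.00460 to 1.01). At 4 h, with the guide higher, it was back to 2.81% and 3.41%. The balance of the arms, tested with limma as log2(passenger CPM + 0.5) minus log2(guide CPM + 0.5), moved by 3.72 (SE 0.38, adjusted p = 4.36e-06), the largest shift of any hairpin with both arms tested.

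The reads of miR-155-5p also changed in form. Reads extended at the 3′ end with bases that match the hairpin (templated, read so from the class names) had 116 and 123 CPM at 2 h (821 and 817 reads), against 15.7 and 16.4 CPM at 1 h (117 and 112 reads). Reads equal to the reference had 30.9 and 32.3 CPM at 2 h, against 29.2 and 35.6 CPM at 1 h. Trimmed reads had 21.6 and 15.1 CPM at 2 h, against 19.9 and 22.999 CPM at 1 h. The rise of miR-155-5p lay in its longer form: the templated extended form rose by a log2 change of 2.92 (SE 0.28, edgeR adjusted p = 7.40e-05), while reference reads showed a log2 change of -0.01 (SE 0.23, adjusted p = 1.00). The table gives the class and not the added bases; in the hairpin printed above, the bases after the 5p arm are uuuggc.

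Extended reads made 66.9% and 68.5% of miR-155-5p at 2 h and 22.9% and 20.3% at 1 h. The 0 h libraries were like those at 1 h, at 21.9% and 24.2%, and the 4 h libraries like those at 2 h, at 71.2% and 75.9%. Of 1159 miRNA and read-class combinations tested, 6 were called (0.518%), all higher at 2 h. In a direct test of extended against reference reads over 189 miRNAs, miR-155-5p was the only one called (0.529%), with a log2 shift of 2.89 (SE 0.16, limma adjusted p = 4.35e-07). Adding the replicate number as a block gave 32 called combinations, some higher and some lower at 2 h, and 3 shifts. The shifts were those of miR-155-5p, miR-21a-5p (0.20, limma adjusted p = 0.0207) and miR-27b-5p (-0.49, limma adjusted p = 0.0295). Over all miRNAs together the templated extended class made 8.78% and 8.81% of reads at 2 h, and 8.65% and 8.70% at 1 h.

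**Figure D2:**
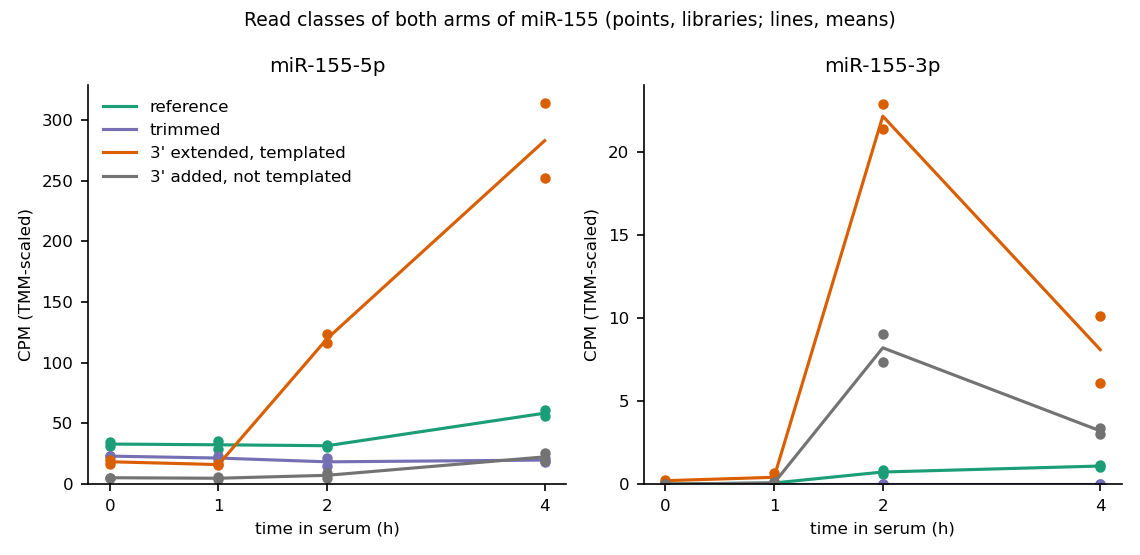
Level in CPM (vertical axis) of each read class of miR-155-5p (left) and miR-155-3p (right) at 0, 1, 2 and 4 h of serum; points are the 2 libraries of a time and lines their mean. The templated extended class of the 5p arm separates from the reference class at 2 h, and the 3p arm peaks at 2 h and is lower at 4 h.

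Reads of miR-155-3p were mostly extended as well. Templated extended reads had 21.4 and 22.9 CPM at 2 h, against 0.672 and 0.146 CPM at 1 h (5 and 1 reads). Reads with added bases that do not match the hairpin numbered 52 and 60 at 2 h, against 1 and 0 at 1 h. Both forms were among the 6 called, with adjusted p of 2.82e-05 and 7.40e-05. Reads of the 3p arm classed as equal to the submitters' reference numbered 6 and 4 at 2 h, too few for that form to be tested. miR-155 is also abundant in activated blood cells, and 9 arms of blood-cell miRNAs were in the table. They summed to 94.9 to 126 CPM at 2 h and 89.1 to 120 CPM at 1 h, 4 were tested and none was called, and 2 of the 9 were at 0 in all 4 libraries; their part in the rise of miR-155 was not tested.

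From the miR-17-92 transcript, one arm rose without the others. miR-17-92 is a polycistron known for promoting proliferation and for its activation by Myc, and Mir92-1 is its last hairpin, in an exon of Mir17hg at chr14:115044427-115044506 on the plus strand. The passenger miR-92a-1-5p had 162 and 149 CPM at 2 h, against 63.2 and 66.2 CPM at 1 h. The groups were well apart, with 0 h at 91.6 and 62.1 CPM and 4 h at 190 and 221.9 CPM. The log2 change was 1.27 (SE 0.18, adjusted p = 0.000972), with 1.35 and 1.16 within the 2 experiments.

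The guide of that hairpin, miR-92a-3p, had 21750 and 23967 CPM at 2 h, against 22097 and 24089 CPM at 1 h. These groups overlapped, and the log2 change was -0.01 (SE 0.13, adjusted p = 0.993). That arm cannot be told apart from the product of the second miR-92a hairpin. The balance of the arms moved towards the passenger by 1.27 (SE 0.23, limma adjusted p = 0.00286), and the passenger made 0.740% and 0.618% of the pair's reads at 2 h, against 0.285% and 0.274% at 1 h. The 8 other tested arms of the hairpins upstream on the same strand, from miR-17 to miR-19b, had log2 changes of -0.19 to 0.09 and none was called. Over the fixed list of the cluster and its paralogs, 1 of 16 tested arms rose and none fell, where 1.56% of all tested miRNAs rose. The median log2 change of the list was -0.01, against -0.04 over all tested. Nearly all miR-92a-1-5p reads equalled the reference, at 1136 and 972 at 2 h against 457 and 432 at 1 h, and none was a templated 3′ extension.

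The same split between arms appeared at miR-29b-1. The miR-29 family is known for repressing collagens and other matrix genes through its shared guide seed, and the passenger has another seed. Mir29b-1 lies at chr6:31063023-31063093 on the minus strand, in an exon of the non-coding Gm27019. miR-29b-1-5p, the passenger, had 28.8 and 23.7 CPM at 2 h, against 2.69 and 6.59 CPM at 1 h. Both 2 h libraries were above both 1 h libraries, and the 1 h replicates differed by a larger ratio than the 2 h ones, though by less in CPM. The log2 change was 2.51 (SE 0.36, adjusted p = 0.000972), with 3.20 and 1.77 within the 2 experiments. The level was 6.16 and 6.50 CPM at 0 h and 33.1 and 30.2 CPM at 4 h, and both 4 h values lay above both 2 h values.

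The guide miR-29b-3p, which a second hairpin also encodes, had 54.0 and 45.4 CPM at 2 h, against 48.8 and 56.0 CPM at 1 h, and its groups overlapped. Its log2 change was -0.07 (SE 0.40, adjusted p = 0.993). miR-29b-1-5p made 34.8% and 34.3% of the pair's reads at 2 h, against 5.22% and 10.5% at 1 h, a shift of 2.56 on the log2 scale (SE 0.55, limma adjusted p = 0.00986). Its neighbour miR-29a, whose hairpin is annotated close by on the same strand, was not called in either arm, with log2 changes of 0.44 for the 5p arm (adjusted p = 0.666) and 0.03 for the 3p arm (adjusted p = 0.993). Of 5 tested arms of the miR-29 family 1 rose and none fell, where 1.56% of all tested miRNAs rose and 0.445% fell.

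miR-212-5p rose, while the other arm and the neighbour miR-132 were not called. The locus of miR-212 and miR-132 is known for its activation by CREB after growth factor and neurotrophin signals. Mir212 lies at chr11:75173388-75173478 on the plus strand, in an intron of 1700016P03Rik. miR-212-5p had 10.8 and 11.5 CPM at 2 h, against 3.63 and 4.25 CPM at 1 h. The replicates were close and the groups apart, with 0 h at 4.34 and 5.01 CPM and 4 h at 9.10 and 14.96 CPM. The log2 change was 1.50 (SE 0.27, adjusted p = 0.00572), and the call was lost without the first 1 h library (adjusted p = 0.0821) and without the second 2 h library (adjusted p = 0.0570).

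The other arm, miR-212-3p, had 3.97 and 3.77 CPM at 2 h, against 2.55 and 3.37 CPM at 1 h, a log2 change of 0.39 (SE 0.29, adjusted p = 0.769). It made 26.9% and 24.8% of the hairpin's reads at 2 h, against 41.3% and 44.2% at 1 h, so at this hairpin the balance moved towards the guide, by -1.05 (SE 0.30, limma adjusted p = 0.0415). miR-132-3p, which shares the seed of miR-212-3p, had 29.5 and 31.6 CPM at 2 h, against 26.6 and 33.7 CPM at 1 h. These groups overlapped, and the log2 change was 0.02 (SE 0.28, adjusted p = 0.993).

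Of the other 2 that rose, let-7e-3p is the passenger of a let-7 family member, a family whose guides repress Ras and Hmga2. Mirlet7e lies in an intron of Spaca6 at chr17:17830352-17830444 on the plus strand. let-7e-3p had 60.8 and 64.0 CPM at 2 h, against 35.6 and 40.0 CPM at 1 h. The groups did not overlap and the log2 change was 0.72 (SE 0.16, adjusted p = 0.0357). Its guide let-7e-5p showed a log2 change of 0.19 (SE 0.19, adjusted p = 0.909), and its neighbour miR-125a-3p one of 0.42 (SE 0.20, adjusted p = 0.467). The let-7e-3p call was lost without any one of the 4 compared libraries, with adjusted p of 0.0691 to 0.190.

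miR-702-5p comes from a hairpin that overlaps an annotated exon of the collagen-modifying enzyme gene Plod3, at chr5:136991433-136991541 on the plus strand. Fragments of the host RNA therefore cannot be told apart from the miRNA. It was the scarcest of the 9, with 3.26 and 3.32 CPM at 2 h (23 and 22 reads), against 0.672 and 0.879 CPM at 1 h (5 and 6 reads). The groups were apart although the counts were low, and the ratio of summed, scaled reads was 4.27 (95% counting interval 2.17 to 9.15). The log2 change was 2.07 (SE 0.38, adjusted p = 0.00572), lost without the first 1 h library (adjusted p = 0.0821), without the second 2 h library (adjusted p = 0.0541) and with the 4 compared libraries alone (adjusted p = 0.0700). The guide miR-702-3p showed a log2 change of 0.34 (SE 0.21, adjusted p = 0.709).

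**Figure D3:**
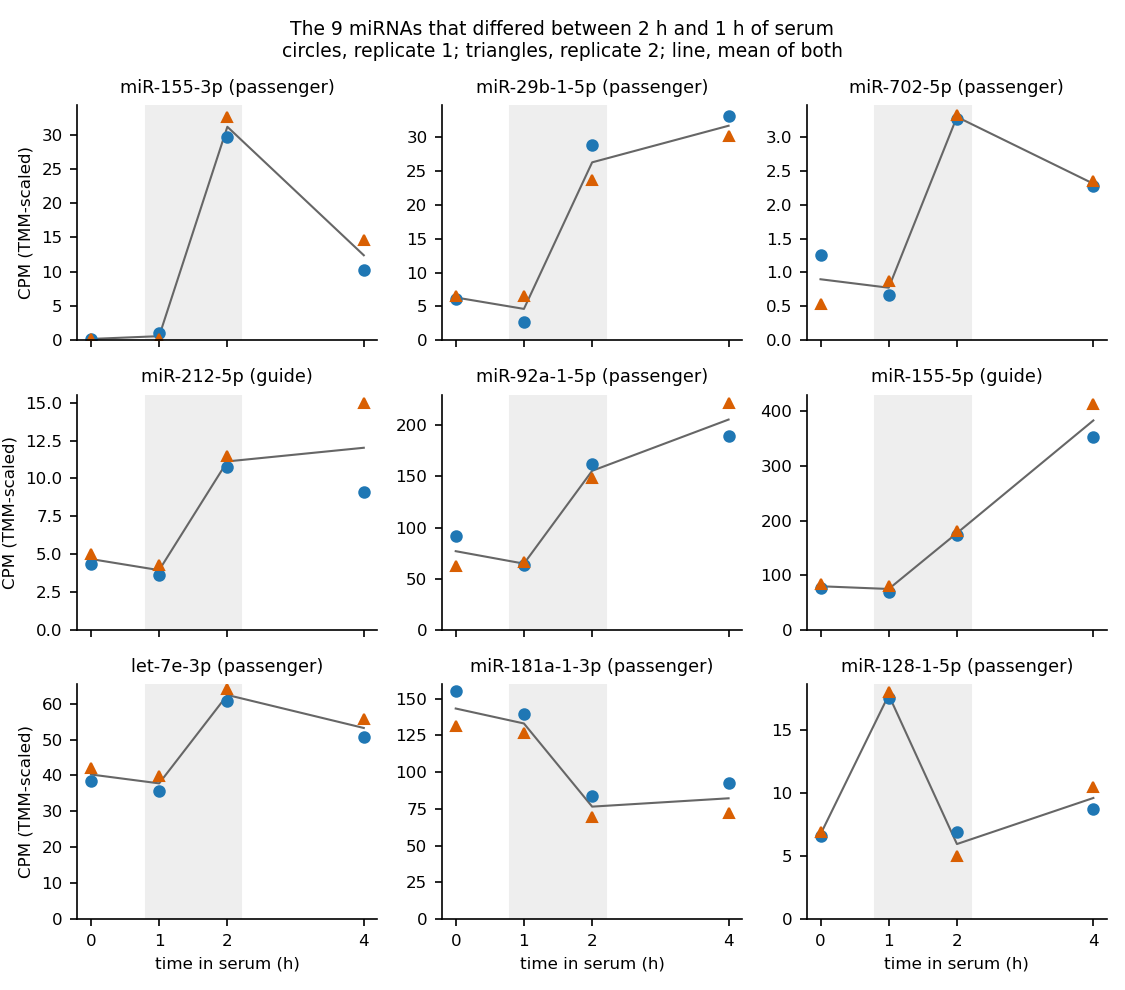
Level in CPM (vertical axis, starting at 0) of the 9 called miRNAs in each library at 0, 1, 2 and 4 h of serum, in order of log2 change; circles and triangles are the 2 experiments, lines join the means, and the shaded band holds the compared times. In 7 panels the 2 h points lie above the 1 h points, miR-181a-1-3p steps down, and miR-128-1-5p is high at 1 h and back near its 0 h level at 2 h.

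In the fit without the replicate block, 1 miRNA was called as a pulse at 1 h, and it had ended by 2 h. miR-128-1-5p is the passenger of a hairpin in an intron of R3hdm1, at chr1:128202361-128202430 on the plus strand, whose guide miR-128-3p is best known from brain. miR-128-1-5p had 6.58 and 6.90 CPM at 0 h, 17.6 and 18.02 CPM at 1 h, 6.95 and 4.98 CPM at 2 h, and 8.72 and 10.5 CPM at 4 h. Both 1 h libraries stood above every library of the other 3 times, and the replicates were close. From 1 h to 2 h it fell by 1.57 in log2 units (SE 0.23, adjusted p = 0.00120), with differences of -1.28 and -1.76 within the 2 experiments.

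Set against the mean of 0 h and 2 h, the 1 h level was higher by a log2 change of 1.49 (SE 0.19, adjusted p = 0.000944). This was the only pulse called among the tested miRNAs (0.223%), with no dip at 1 h called by edgeR; 22 (4.90%) had an unadjusted p under 0.05, and DESeq2 called 3 pulses or dips. The call held without any one of the 16 libraries in turn. With reads equal to the reference alone the fall from 1 h to 2 h was not called (adjusted p = 0.0848). The guide miR-128-3p, encoded by 2 hairpins, had 273 and 321.7 CPM at 2 h, against 281 and 352 CPM at 1 h, and its groups overlapped (log2 change -0.09, SE 0.23, adjusted p = 0.993). The passenger made 2.48% and 1.53% of the pair's reads at 2 h, against 5.90% and 4.87% at 1 h, a shift of -1.43 (SE 0.36, limma adjusted p = 0.0264).

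Adding the replicate number as a block gave 5 pulses and 3 dips. The pulses were miR-128-1-5p and 4 more, with log2 heights at 1 h of 1.10 for miR-130a-5p (adjusted p = 0.00870), 0.86 for miR-1843a-3p (adjusted p = 0.00658), 0.82 for miR-27a-5p (adjusted p = 0.00183) and 0.76 for miR-345-5p (adjusted p = 0.00217). With the block miR-345-5p, miR-130a-5p and miR-1843a-3p also fell between 1 h and 2 h (adjusted p of 0.00190, 0.00851 and 0.0154). None of these falls was called in the main fit, and that of miR-130a-5p was also called with no filter on low counts. Of the 4, miR-345-5p is the guide of its hairpin and the others are passengers. miR-27a-5p, from the miR-23a/27a/24-2 cluster, had 39.4 and 46.3 CPM at 0 h, 96.9 and 131.7 CPM at 1 h, 75.2 and 120 CPM at 2 h, and 68.5 and 84.8 CPM at 4 h. The 2 h values overlapped those of 1 h, and the fall between them was not called (log2 change -0.23, SE 0.30, adjusted p = 0.934; 0.362 for the pulse without the block). The 3 dips with the block were miR-155-5p, miR-92a-1-5p and miR-29b-1-5p, each lower at 1 h than at 2 h and, by a smaller margin, than at 0 h.

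miR-181a-1-3p, the other one lower at 2 h, stepped down and was not called as a pulse. It is the passenger of miR-181a-1, whose guide is known for setting T cell receptor sensitivity in thymocytes; the hairpin lies at chr1:137966455-137966541 on the plus strand, in an intron of Gm4258 and an exon of A430106G13Rik. It had 83.8 and 69.1 CPM at 2 h, against 139 and 127 CPM at 1 h. The groups did not overlap, with 155.4 and 131 CPM at 0 h and 92.4 and 71.9 CPM at 4 h. It fell by 0.80 in log2 units (SE 0.19, adjusted p = 0.0479), a call lost without any one of the 4 compared libraries (adjusted p 0.107 to 0.335).

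The guide miR-181a-5p, which 2 hairpins encode, showed a log2 change of 0.11 (SE 0.10, adjusted p = 0.877), and the balance of the arms moved towards it by -0.91 (SE 0.24, limma adjusted p = 0.0264). The neighbouring passenger miR-181b-1-3p showed a log2 change of -0.79 (SE 0.34, adjusted p = 0.406), not called.

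**Figure D4:**
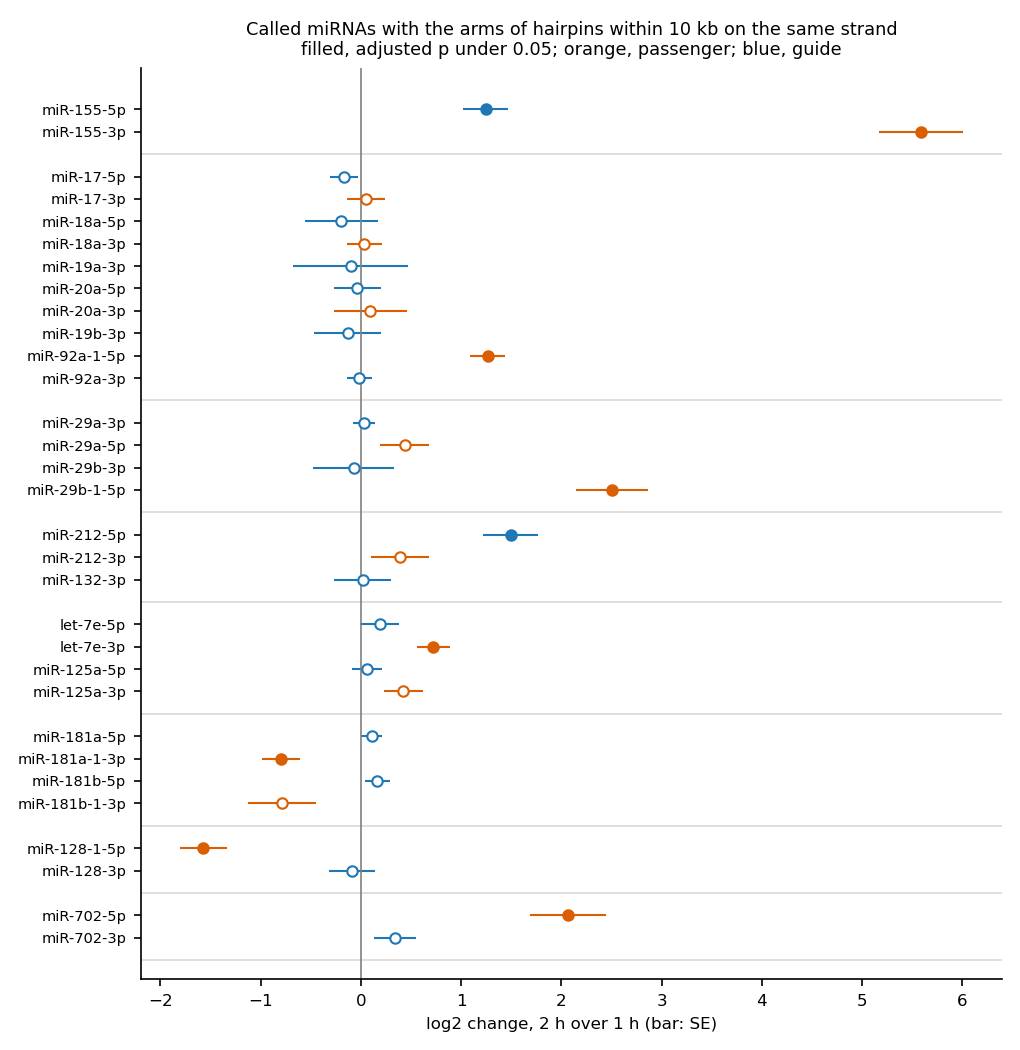
Log2 change of 2 h over 1 h (horizontal axis) with its SE for the called miRNAs and for the tested arms of hairpins within 10000 bases on the same strand, grouped by locus; filled points have an adjusted p under 0.05, orange marks passengers and blue guides. At each locus but miR-155 the called arm is the only filled point.

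The 2 h level was also set against the mean of 0 h and 1 h, asking for the same direction from each of them. This contrast does not ask that 1 h equal 0 h, so it also takes miRNAs that were already on the move, or in a pulse, at 1 h. Of the tested miRNAs 17 were called (3.79%), 11 higher (2.45%) and 6 lower (1.34%). By arm these were 12 of 151 passengers (7.95%; 7 higher and 5 lower) and 5 of 241 guides (2.07%; 4 higher and 1 lower). All 9 miRNAs called between 2 h and 1 h were among them, miR-128-1-5p as a fall of 0.87. Its 2 h mean of 5.97 CPM was far below the 1 h mean of 17.8 CPM. It was only a little below the 0 h mean of 6.74 CPM, and the 2 h values (6.95 and 4.98 CPM) overlapped those of 0 h (6.58 and 6.90 CPM). That call therefore reflects the end of the pulse and does not show a fall below 0 h. With the replicate number as a block the count was 35, 17 higher and 18 lower, with the 17 among them. Without the second 1 h library it was 10, and without the second 2 h library 7.

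Among the 8 others, miR-221-5p is the passenger of miR-221, whose guide represses the cell cycle inhibitor p27. It had 147 and 171 CPM at 0 h, 178 and 198 CPM at 1 h, 263 and 235 CPM at 2 h and 321 and 357 CPM at 4 h. Its means climbed at every step shown, and at 2 h it stood above the earlier mean by a log2 change of 0.53 (SE 0.12, adjusted p = 0.0268). The step from 1 h alone was not called (log2 change 0.40, SE 0.14, adjusted p = 0.262), and the guide miR-221-3p was at 0.11 (SE 0.22, adjusted p = 0.984).

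miR-365-2-5p, a passenger, had 10.2 and 16.6 CPM at 2 h, against 5.11 and 5.57 CPM at 1 h, with 5.04 and 6.90 CPM at 0 h. Both 2 h libraries were above all earlier ones, and the log2 change against the mean of 0 h and 1 h was 1.24 (SE 0.28, adjusted p = 0.0265). The step from 1 h missed the threshold (log2 change 1.32, SE 0.34, adjusted p = 0.0732) and passed it with the replicate block (adjusted p = 0.00105). Its guide miR-365-3p, shared by 2 hairpins, was at 0.01 (SE 0.14, adjusted p = 0.993).

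miR-203-3p, known from differentiating skin epithelium, rose at a very low level and had 3.40 and 5.43 CPM at 2 h (24 and 36 reads), against 0.806 and 1.61 CPM at 1 h (6 and 11 reads). The groups were apart, and the log2 change against the mean of 0 h and 1 h was 1.97 (SE 0.45, adjusted p = 0.0269). The step from 1 h was not called in the main fit (adjusted p = 0.132). It was called with the replicate block (adjusted p = 0.00472) and with no filter on low counts. Of the listed epithelial miRNAs 11 arms were in the table and 2 were tested, and their sum was 102.5 to 113.6 CPM at 2 h and 103.4 to 109.7 CPM at 1 h. The remaining rise was that of miR-6963-3p, named after its values were seen. It was scarce, with 2.13 and 2.11 CPM at 2 h (15 and 14 reads), against 0.806 and 0.293 CPM at 1 h (6 and 2 reads). The value of 0.293 CPM lies under the floor of 3 reads. Against the earlier mean the log2 change was 1.82 (SE 0.44, adjusted p = 0.0313). With the replicate block its step from 1 h was also called (adjusted p = 0.0444).

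The 6 lower ones were miR-128-1-5p, miR-181a-1-3p and 4 more, some of them already lower at 1 h than at 0 h. miR-26a-2-3p is the passenger of a miR-26a hairpin that overlaps an annotated exon of Ctdsp2. It had 21.8 and 23.8 CPM at 0 h, 9.68 and 10.99 CPM at 1 h, 5.39 and 8.15 CPM at 2 h and 4.55 and 5.46 CPM at 4 h. The larger part of its drop lay before 1 h, and the difference of 2 h from the mean of the earlier times was -1.18 (SE 0.20, adjusted p = 0.00292). The step from 1 h was not called (log2 change -0.61, SE 0.23, adjusted p = 0.277), and the guide miR-26a-5p was at 0.01 (SE 0.15, adjusted p = 0.993).

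miR-671-5p, the passenger of a hairpin in an exon of Chpf2, had 20.1 and 19.2 CPM at 2 h, against 27.8 and 33.3 CPM at 1 h, with 28.7 and 34.5 CPM at 0 h. The groups were apart and the difference from the earlier mean was -0.66 (SE 0.16, adjusted p = 0.0329). The fall of miR-671-5p from 1 h was called with the replicate block (adjusted p = 0.0444) and not without it (adjusted p = 0.125). miR-326-3p, a guide from an intron of Arrb1, had 8.23 and 11.02 CPM at 2 h, against 11.4 and 20.8 CPM at 1 h, with a mean of 24.1 CPM at 0 h, a difference of -1.03 (SE 0.24, adjusted p = 0.0269). miR-652-5p, a passenger from an intron of Tmem164, was scarce, with 2 and 5 reads at 2 h, against 14 and 15 reads at 1 h (difference -1.91, SE 0.50, adjusted p = 0.0476).

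The balance of the arms, which sets guide and passenger of one hairpin side by side in the same library, was called for 11 hairpins (7.24%), 8 towards the passenger at 2 h (5.26%) and 3 towards the guide (1.97%). Those towards the passenger were miR-155, miR-92a-1, miR-29b-1, miR-702, miR-365-2, miR-195a, miR-129b and miR-193a. The shift at miR-365-2 was 1.20 (SE 0.31, limma adjusted p = 0.0264). miR-195a belongs to the miR-15/16 family, which restrains cyclins, and its passenger had 9 and 13 reads at 2 h against 1 and 3 at 1 h, with 30 and 29 against 40 and 56 reads for the guide. The shift was 2.01 (SE 0.43, limma adjusted p = 0.00986), and neither arm was called alone.

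At miR-193a the passenger had 35 and 33 reads at 2 h, against 30 and 25 at 1 h, while the guide miR-193a-3p had 551 and 755, against 1035 and 1728. The shift of 1.32 (SE 0.36, limma adjusted p = 0.0319) therefore went with lower guide values, at a log2 change of -1.03 (SE 0.31, adjusted p = 0.140; 0.0444 with the replicate block). At miR-129b the passenger made 50.4% and 48.4% of the pair's reads at 2 h, against 34.6% and 27.2% at 1 h (shift 1.09, SE 0.26, limma adjusted p = 0.0225). The count of 11 fell to 4 and 3 without the first and the second 1 h library, and to 5 and 2 without the first and the second 2 h library, with miR-155 and miR-92a-1 called each time. With the replicate block it was 14, the 11 and 3 more, with shifts of 0.83 at miR-129-2 (limma adjusted p = 0.00461), -1.06 at miR-130a (adjusted p = 0.0299) and -0.93 at miR-1843a (adjusted p = 0.0398).

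**Figure D5:**
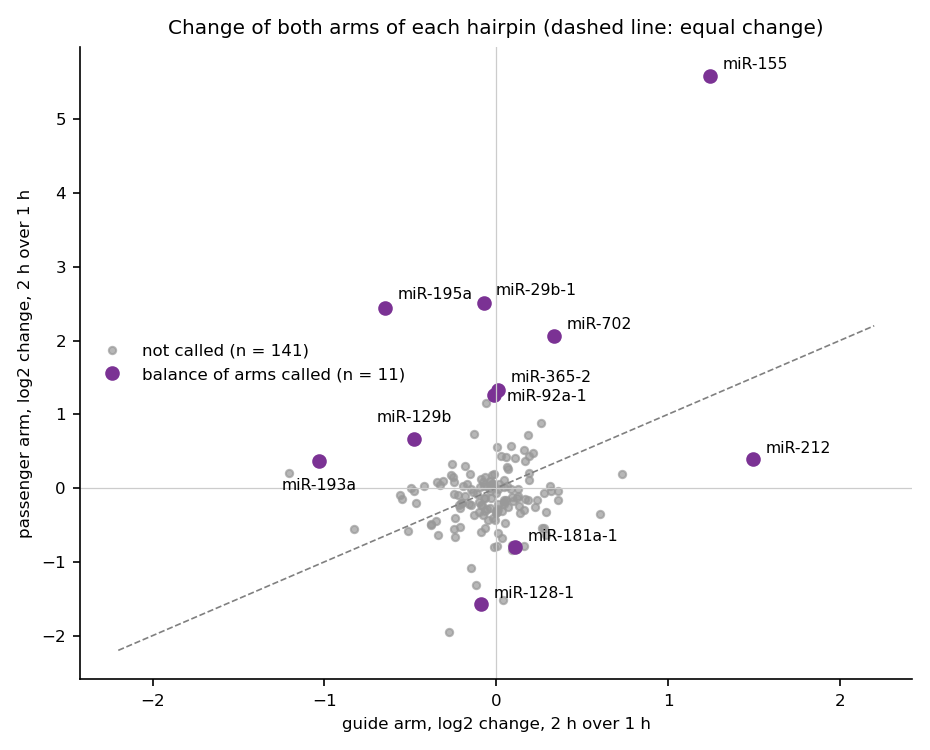
Log2 change of 2 h over 1 h of the passenger (vertical axis) against that of the guide (horizontal axis) for all hairpins with both arms tested; purple points are the 11 whose balance of arms was called, and the dashed line marks equal change. The guides of miR-155, miR-212 and miR-193a lie more than 1 log2 unit from 0, and those of the other 8 called hairpins lie closer to it.

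Of the miRNAs listed as growth-factor-induced, 16 arms were tested, 3 rose between 1 h and 2 h and none fell, where 1.56% of all tested miRNAs rose. Against the mean of 0 h and 1 h, 4 were called higher at 2 h, where 2.45% of all tested were. The 3 were both arms of miR-155 and miR-212-5p, the fourth was miR-221-5p, and the median log2 change was 0.26, against -0.04 over all tested. As the list was chosen with earlier results of these data known, its excess over all tested miRNAs cannot be read as a test of the list. The abundant guides of this list were not called. miR-21a-5p, which represses Pdcd4, had 62030 and 67598 CPM at 2 h and 59621 and 58462 CPM at 1 h (log2 change 0.13, SE 0.18, adjusted p = 0.934). miR-31-5p was at 0.00 (SE 0.10, adjusted p = 0.997) and miR-222-3p at 0.07 (SE 0.18, adjusted p = 0.993). Outside this list, miR-22-3p, with 135769 and 121266 CPM at 2 h and 127234 and 118115 CPM at 1 h, was at 0.07 (SE 0.08, adjusted p = 0.934).

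The lists of other families are read against the 2% of all tested miRNAs that were called. In the let-7 family 1 of 19 tested arms rose, in the miR-15/16 family none of 10 was called, and neither was any of 11 in each of the miR-30, miR-23/27/24 and miR-322 groups. Both arms of miR-22 and of miR-31, and the passengers miR-21a-3p and miR-222-5p, were not called either, with log2 changes of -0.25 to 0.25. The calls counted here are for 2 h against 1 h without the replicate block. With the block, 2 h differed from the mean of 0 h and 1 h for some listed miRNAs (edgeR). miR-30c-5p was lower (log2 change -0.42, adjusted p = 0.0170), as was miR-214-3p (-0.37, adjusted p = 0.0120). let-7f-5p (0.36, adjusted p = 0.0315) and let-7g-5p (0.54, adjusted p = 0.0370) were higher. miR-30c-5p had 16696 and 14967 reads at 1 h and 13122 and 10242 at 2 h.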

How the data were processed

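Per the labels' protocols, a TruSeq small RNA kit was applied to 1000 ng of miRNeasy-extracted RNA. The submitters' processing notes list CASAVA 1.8.0. Which aligner was used, against which miRBase release and genome build, and how multiply matching reads were counted is not given in the sources used here. Raw counts of reads were deposited by the authors in 1 table, with a column per library and an entry per miRNA and read class. Of its 6511 entries 1 identical duplicate was removed, and 3 entries without a class ending held 7 reads. Entries for single added bases repeat the non-templated class (9.55% to 10.5% of the sum) and were left out, so each read was counted once. Guides that several hairpins encode are counted together.

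Counts were tested with edgeR 4.0.16 (R 4.3.3; TMM factors 0.935 to 1.07, filterByExpr minimum count 10, all 16 libraries, 1 coefficient per time, no block) and Benjamini-Hochberg adjustment. 718 miRNAs were not tested; at least 99.986% of reads lay on tested ones. Pulses were 1 h minus the mean of 0 h and 2 h, and a further contrast was 2 h minus the mean of 0 h and 1 h, with the same sign against both. Arm balance used limma 3.58.1 with trend and 0.5 CPM added. Tests of read classes were added after seeing the data. An SE is the change over the square root of F. Intervals and floors (3 counts) cover counting error only, since reads carry no molecular identifiers. The edgeR contrasts and the arm balance were tested on simulated data with set changes.

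The header names 2 sequencing runs, each holding 1 replicate number. Deviations of same-numbered libraries correlated over all 28 pairs of times (0.134 to 0.602, median 0.286), so the numbers pair the libraries. Counts of calls with the block are given for every test. Block values are given for only part of the miRNAs and read classes whose call changed. The calls gained between 2 h and 1 h also took in miR-129-5p (log2 change 0.715, edgeR adjusted p = 0.0071).

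Named miRNAs were those called in any test (up to 10 a direction), the 6 largest non-overlapping rises and falls at 5 CPM or more with unadjusted p under 0.05, their other arms, a set of hairpins fixed by name, and extreme arm shifts; miR-27a-5p, miR-6963-3p, neighbours, miR-129b, miR-193a and those called only with the block were named after their values were seen. The comparison, lists and tests were chosen with earlier results of these data known. RefSeq matched 988 of 1167 names, 372 of them tested. A hairpin is placed in an exon where it overlaps, by any length, an exon of any annotated transcript of the gene. Alternatives were other scalings and filters, DESeq2 1.42.0, limma-voom, the block, fewer libraries, and reference reads alone.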

Additional observations from a re-analysis of the deposited data

How the results depend on the processing

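Counts of calls between 2 h and 1 h (9 as reported) were 16 with no filter on low counts, 4 with a filter at 10 CPM and 18 with the replicate block, and 4 to 10 leaving out one library in turn. Pulses and dips (1 as reported) were 7, 0 and 8 under the same 3 settings, 2 with only the libraries of the contrast, 3 with DESeq2's test and 1 to 3 leaving out one library. Differences of 2 h from the earlier mean (17) were 8 at 10 CPM, 35 with the replicate block, 10 with reference reads alone and 7 to 18 leaving out one library. Arm shifts (11) were 14 with the replicate block, 4 with no filter, 5 at 10 CPM, 6 with only the compared libraries, 3 with reference reads alone and 2 to 11 leaving out one library. Called read-class combinations (6) were 3 at 10 CPM, 32 with the replicate block and 5 to 10 leaving out one library. Extended against reference shifts (1) were 3 with the replicate block, 2 with only the compared libraries, and 1 leaving out any library. The filters change how many features are tested; the cause of the other differences was not tested. A time left with 1 library was assumed to vary like the others. The replicate block ended no call of the main tests.

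miR-155-3p, miR-92a-1-5p and miR-29b-1-5p kept their call under every alternative run in which they were tested. let-7e-3p lost it in 11 of 25 alternatives (adjusted p 0.00105 to 0.190) and miR-181a-1-3p in 13 of 25 (0.00190 to 0.335), and miR-155-5p lost it with reference reads alone (log2 change 0.02, adjusted p = 0.986). The sign changed only for miRNAs that were not called in any of these fits. Their log2 changes of the other sign put miR-92a-3p at 0.024 (DESeq2 size factors), 0.033 (no filter), 0.022 (the 10 CPM filter), 0.054 (only the compared libraries), 0.040 (reference reads alone), 0.024 (DESeq2's test), miR-29b-3p at 0.0072 (reference reads alone), miR-212-3p at -0.15 (reference reads alone), miR-365-3p at -0.034 (total counts), miR-26a-5p at -0.034 (total counts), miR-132-3p at -0.027 (total counts), miR-222-3p at -0.42 (reference reads alone), miR-31-5p at -0.042 (total counts). Leaving out one library in turn, the log2 change ranged over -0.086 to 0.095 for miR-92a-3p, -0.17 to 0.046 for miR-29b-3p, -0.0055 to 0.40 for let-7e-5p, -0.24 to 0.084 for miR-128-3p, -0.030 to 0.050 for miR-365-3p, -0.23 to 0.43 for miR-221-3p, -0.081 to 0.13 for miR-26a-5p, -0.64 to 0.12 for miR-21a-3p, -0.52 to 0.074 for miR-22-5p, -0.14 to 0.20 for miR-132-3p, -0.26 to 0.38 for miR-222-3p, -0.020 to 0.064 for miR-31-5p, -0.59 to 0.34 for miR-31-3p, -0.60 to 0.11 for miR-27a-5p and -1.09 to 0.0014 for miR-129b-5p. Low depth limits miR-702-5p, miR-203-3p, miR-652-5p, miR-195a-3p and miR-6963-3p, with under 40 reads in every compared library.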
